A study of Homo sapiens with 8 samples.

Results

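The kinesin superfamily is the set of motor proteins that walk along, or take apart, microtubules. Members were the probes whose gene symbol in the platform annotation was KIF or KIFC with a number and, where present, a letter. That left out the partner proteins KIFAP3 and KIFBP, and also CENPE, a motor of the superfamily with another kind of symbol. The rule gave 57 probes for 41 genes, of 47323 probes and 20046 named genes on the array. The study measured total RNA on Illumina beadchips in 2 human ovarian carcinoma cell lines, SKOV3 and OVCAR5, with 2 arrays per group and 8 arrays in all. The groups were SKOV3 with 10 µM lovastatin, SKOV3 with DMSO, OVCAR5 with 10 µM lovastatin and OVCAR5 with DMSO, each for 48 h. Lovastatin blocks HMG-CoA reductase, the enzyme that commits carbon to the mevalonate pathway, and DMSO is its solvent. Nothing in the labels ties the arrays of a group to separate cultures, so p-values measure only the spread between these arrays.

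Kinesins turn ATP hydrolysis into movement along microtubules. Mitotic kinesins build the spindle, align chromosomes and help to cut the dividing cell, and most are made mainly by cells close to division. Transport kinesins carry vesicles, organelles and ciliary cargo at any stage of the cell cycle. In RNA from whole cultures, fewer dividing cells and less kinesin RNA per cell cannot be told apart.

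Between 15370 and 17231 probes per array had a detection p under 0.01, the threshold used here for a detected probe. Replicate arrays correlated with r of 0.988 in SKOV3 lovastatin and between 0.993 and 0.994 in the other groups. The epithelial markers KRT8, KRT18 and EPCAM were detected on all 8 arrays, KRT7 and KRT19 on the 4 SKOV3 arrays, and CDH1 on 0 of 8. Of the leukocyte markers, PTPRC and CD3E were detected on 0 of 8 arrays, CD14 on the 4 OVCAR5 arrays, LYZ on 2 arrays and CD79A on 1. Of the fibroblast markers, COL1A2 and PDGFRB were detected on 0 of 8 arrays, COL1A1 on the 4 SKOV3 arrays, DCN on up to 3 arrays for a probe, and COL3A1 and LUM on 2 each. The endothelial markers PECAM1, VWF, CDH5 and KDR were detected on 0 of 8 arrays. The part of these markers in the kinesin results was not tested.

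Of the 41 kinesin genes, 29 had a probe detected on at least 2 arrays and were tested among 11218 genes. By role, 13 of 16 mitotic kinesins and 16 of 25 other kinesins were tested. The other 12 genes were KIF2B, KIF4B and KIF25 among the mitotic kinesins, and KIF1A, KIF5A, KIF6, KIF9, KIF13A, KIF17, KIF19, KIF27 and KIFC3. Of these, 10 had no probe detected on any array, while KIF1A was detected on 1 SKOV3 lovastatin array and KIFC3 on 1 OVCAR5 lovastatin array. Among the tested genes, 20 were detected on all 8 arrays. KIF12 and KIF26B were detected in 1 group only, so each passed the detection filter only through its highest group, which favours a call. The plot of kinesin levels by array shows the tested genes side by side.

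**Figure D1:**
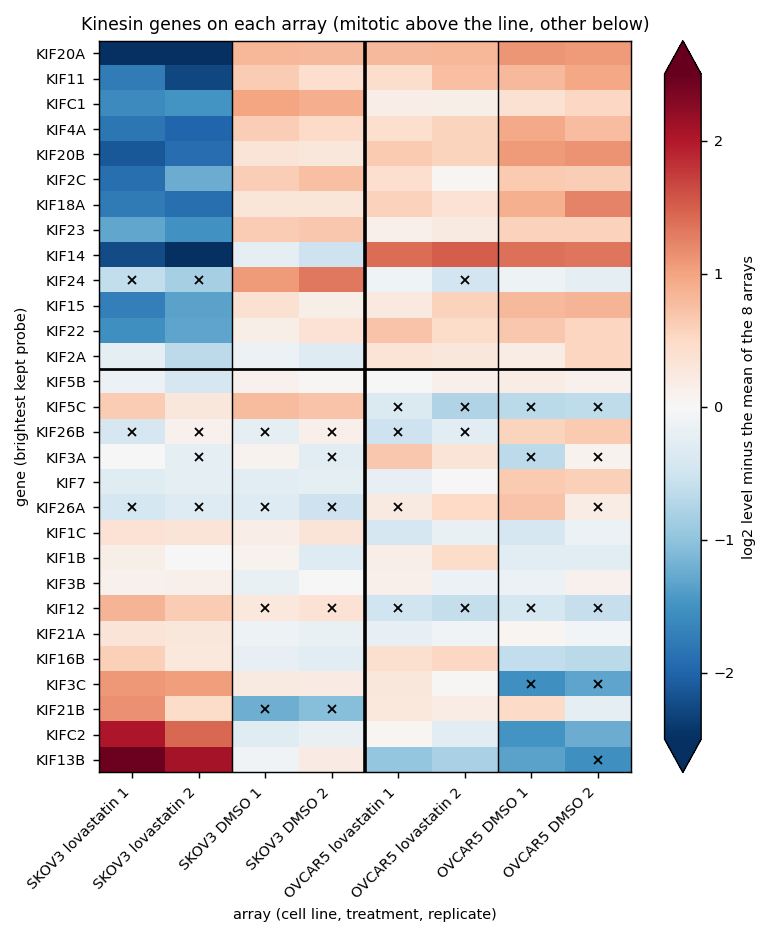
Level of each of the 29 tested kinesin genes on each of the 8 arrays, as log2 intensity relative to that gene's mean over the arrays, with genes down the page by role, arrays across by group and a cross where the detection p was 0.01 or above. The SKOV3 lovastatin arrays are below the SKOV3 DMSO arrays for 12 of the 13 mitotic kinesins.

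In SKOV3, 19 of 29 kinesins passed the test, beside 50.5% of all genes, and the direction went with the role. Of the mitotic kinesins, 12 of 13 fell with lovastatin and none rose, beside 23.9% of all genes that fell (limma, adjusted p under 0.05 over all genes by the Benjamini-Hochberg method). Their median change was -2.13 on the log2 scale, against 0.03 over all genes tested. The falls ranged from -1.68 for KIF22 to -3.54 for KIF20A, and the arrays of the 2 groups did not overlap for these 12 genes, beside 34.9% of all genes. KIF2A was the exception, with a change of -0.20 ± 0.18 (SE) and a limma adjusted p of 0.395.

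The spindle-building motors were among those that fell. KIF11, also called Eg5, pushes the spindle poles apart, and had log2 levels of 6.74 and 6.23 in SKOV3 lovastatin, against 9.12 and 8.91 in SKOV3 DMSO. Both lovastatin arrays lay far below both DMSO arrays, a change of -2.53 ± 0.19 (SE, n = 2 arrays each; limma adjusted p = 2.0e-05). A second KIF11 probe changed by -2.37. KIF15, which can take over from KIF11, had 5.50 and 5.87 in SKOV3 lovastatin, against 7.59 and 7.36 in SKOV3 DMSO. KIFC1, a minus-end motor that gathers the poles, had 8.24 and 8.33 in SKOV3 lovastatin, against 10.81 and 10.74 in SKOV3 DMSO. Neither gene's groups overlapped, and the changes were -1.79 ± 0.17 for KIF15 and -2.49 ± 0.12 for KIFC1.

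Motors that move or hold chromosomes also fell. KIF18A, which damps chromosome movement at the plate, had 5.91 and 5.79 in SKOV3 lovastatin, against 7.98 and 7.98 in SKOV3 DMSO. KIF22, a chromokinesin that binds chromosome arms, had 8.60 and 8.82 in SKOV3 lovastatin, against 10.28 and 10.51 in SKOV3 DMSO. In each case the lovastatin arrays were the lower, by -2.13 ± 0.15 for KIF18A and -1.68 ± 0.15 for KIF22. KIF2C, or MCAK, which takes microtubules apart at centromeres, had 7.15 and 7.78 in SKOV3 lovastatin, against 9.64 and 9.77 in SKOV3 DMSO. Its lovastatin arrays differed by more than its DMSO arrays but did not reach them (-2.24 ± 0.21, limma adjusted p = 6.4e-05). Its relative KIF2A works at spindle poles and also outside mitosis. KIF2A averaged 8.79 ± 0.30 in SKOV3 lovastatin and 8.98 ± 0.12 in SKOV3 DMSO (SD, n = 2 each), and its arrays overlapped.

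The motors of the midzone and of cytokinesis held the largest fall. KIF20A, or MKLP2, which brings the chromosomal passenger complex to the midzone, had 7.07 and 7.12 in SKOV3 lovastatin, against 10.63 and 10.62 in SKOV3 DMSO. This was an 11.6-fold fall (-3.54 ± 0.11, limma adjusted p = 6.6e-07), with replicate arrays close together in both groups. KIF4A, which shortens midzone microtubules with PRC1, had 6.15 and 5.96 in SKOV3 lovastatin, against 8.57 and 8.44 in SKOV3 DMSO. KIF4B is a near-identical copy of KIF4A, so the probe may not separate them. KIF20B had 6.81 and 7.03 in SKOV3 lovastatin, against 9.26 and 9.21 in SKOV3 DMSO. KIF14, which works with citron kinase, had 6.44 and 6.03 in SKOV3 lovastatin, against 8.42 and 8.15 in SKOV3 DMSO. No groups overlapped, and the changes were -2.45 ± 0.13 for KIF4A, -2.31 ± 0.12 for KIF20B and -2.05 ± 0.16 for KIF14.

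KIF23, or MKLP1, forms centralspindlin with RACGAP1. It had 7.74 and 7.53 in SKOV3 lovastatin, against 9.68 and 9.71 in SKOV3 DMSO, with no overlap (-2.06 ± 0.12). A second, dimmer KIF23 probe changed by -1.02, so the size of the fall depends on the probe. KIF24, a centriole protein that holds back the cilium, had 5.23 and 5.01 in SKOV3 lovastatin, against 6.90 and 7.17 in SKOV3 DMSO. It was not above background on either lovastatin array, so its fall is given as at least 3.11-fold lower (means 5.12 ± 0.16 in lovastatin and 7.03 ± 0.19 in DMSO, SD, n = 2 each; limma adjusted p = 4.2e-05).

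**Figure D2:**
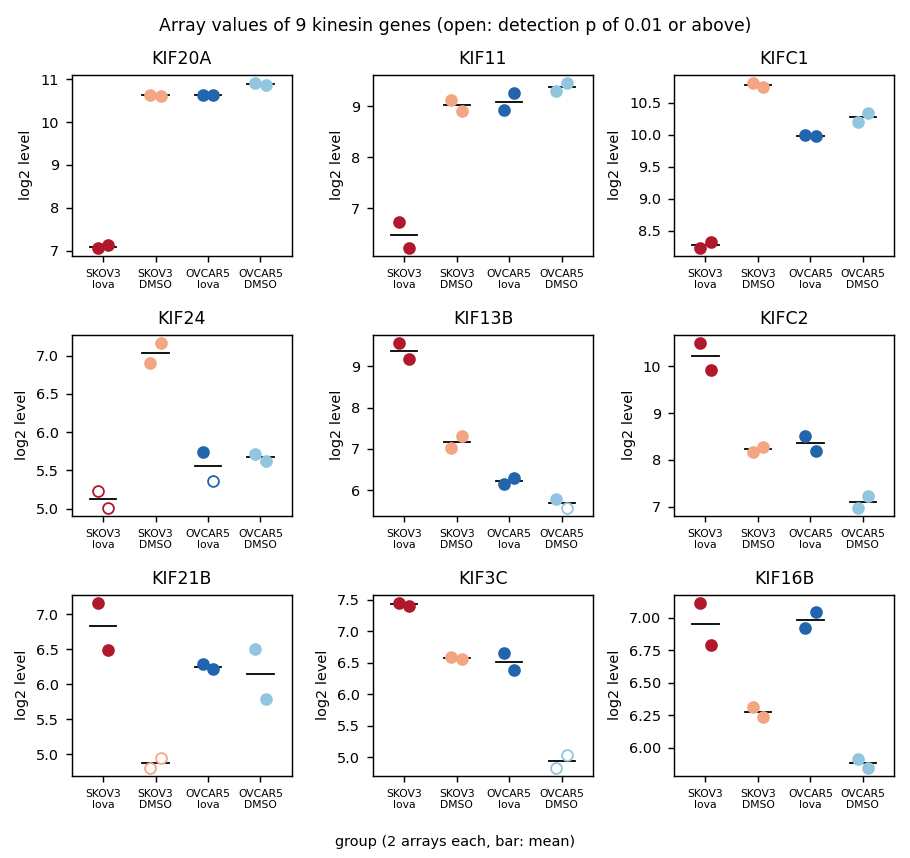
Log2 level on every array (points, open where the detection p was 0.01 or above) with the group mean (bar) for KIF20A, KIF11, KIFC1, KIF24, KIF13B, KIFC2, KIF21B, KIF3C and KIF16B, lovastatin left of DMSO and SKOV3 left of OVCAR5 in each panel. KIF20A stands at 7.07 and 7.12 in SKOV3 lovastatin, while its other 6 arrays lie between 10.62 and 10.92.

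The promoters of the kinesins with the largest falls are shown because mitotic genes are known to carry a cell cycle homology region (CHR) and CCAAT boxes near their start. Sequences are RefSeq windows of GRCh38.p14 from 250 bases before to 50 bases after the start, 5′ to 3′ on the gene's strand, with motif matches on either strand in capitals. The KIF20A window lies at chr5:138178862-138179161 (plus strand) and the KIF11 window at chr10:92592880-92593179 (plus strand).
KIF20A: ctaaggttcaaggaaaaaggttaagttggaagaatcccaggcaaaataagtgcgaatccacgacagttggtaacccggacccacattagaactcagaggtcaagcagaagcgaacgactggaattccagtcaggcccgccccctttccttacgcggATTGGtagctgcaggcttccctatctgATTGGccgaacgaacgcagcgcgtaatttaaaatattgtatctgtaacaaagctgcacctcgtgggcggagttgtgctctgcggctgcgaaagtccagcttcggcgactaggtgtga
KIF11: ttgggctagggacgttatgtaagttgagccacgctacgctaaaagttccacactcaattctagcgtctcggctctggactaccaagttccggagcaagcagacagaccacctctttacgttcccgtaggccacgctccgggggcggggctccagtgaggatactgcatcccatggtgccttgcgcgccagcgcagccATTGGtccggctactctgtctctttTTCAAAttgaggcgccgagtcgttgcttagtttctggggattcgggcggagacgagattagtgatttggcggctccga
KIF20A holds 2 CCAAT matches, at -94 and -67, and no match to the CHR spellings searched, TTTGAA and TTCGAA. Other CHR spellings were not searched. KIF11 holds a CCAAT match at -53 and a CHR match at -28, all positions being the leftmost base counted from the start.

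Of the 29 tested kinesins, 25 had a window, 13 mitotic and 12 other. KIF13B, KIFC2, KIF21B and KIF26B had none, so the shares of other kinesins leave them out. The CHR (TTTGAA) or its variant (TTCGAA) was present in 10 of 13 mitotic kinesins (76.9%) and 1 of 12 other kinesins (8.33%), against 19.5% of 27305 genes. These 27305 are all genes with a window, whether detected here or not. The share among the tested genes was not counted. CCAAT was present in 10 of 13 mitotic kinesins (76.9%) and 5 of 12 other kinesins (41.7%), against 39.7% of all genes. KIF2A, the mitotic kinesin that did not pass the test in SKOV3, held no match to any motif searched, and neither did KIF2C, which fell. E2F-type motifs were searched in 2 forms. The first, TTCCCGC or TTGGCGC with 1 more T in front, matched 1 of 13 mitotic kinesins (7.69%, KIF15) and 0 of 12 others, against 2.75% of all genes. The second form, without that T, added the spellings TTCGCGC and also TTGCCGC to make 4. It was chosen after the first result was seen and matched 3 of 13 mitotic kinesins (23.1%) and 3 of 12 others (25%), against 15.3% of all genes. These matches are descriptions of the letters in the window, not of binding.

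**Figure D3:**
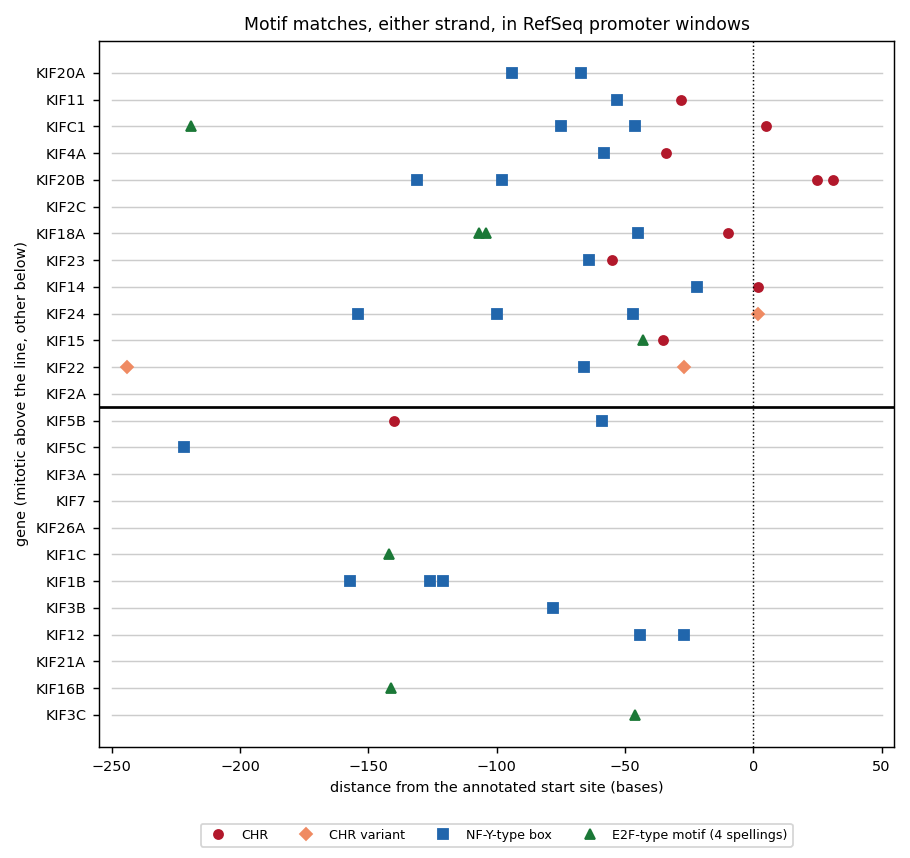
Positions of motif matches relative to the start site (x axis, bases) in the RefSeq promoter windows of the tested kinesins, mitotic above other, with a marker for each kind of motif (the CCAAT box is drawn as the NF-Y-type box). CHR or variant matches fall in 10 of 13 mitotic kinesins and 1 of 12 others, and the E2F-type markers show the second, later set of spellings.

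Of 16 tested kinesins outside mitosis, 7 rose (43.8%) and none fell in SKOV3, beside 26.6% of all genes that rose and 23.9% that fell. In either direction 43.8% passed the test, beside 50.5% of all genes, so these kinesins were called no more often than genes at large. KIF12, among the 7, passed the detection filter only through SKOV3 lovastatin. The median change of the 16 was 0.20. When an array was left out, 5 to 7 passed the test. KIF13B, a cargo motor that binds DLG proteins, had 9.57 and 9.18 in SKOV3 lovastatin, against 7.02 and 7.31 in SKOV3 DMSO. KIFC2, a motor of the minus-end type studied in mouse neurons, had 10.49 and 9.92 in SKOV3 lovastatin, against 8.17 and 8.28 in SKOV3 DMSO. Both rose without overlap of the arrays, beside 38.4% of all genes higher without overlap, KIF13B by 2.21 ± 0.17 (limma adjusted p = 2.2e-05) and KIFC2 by 1.98 ± 0.21.

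KIF21B, which limits microtubule growth, had 7.16 and 6.49 in SKOV3 lovastatin, against 4.81 and 4.96 in SKOV3 DMSO. It was not above background on either DMSO array and was at least 2.62-fold higher with lovastatin (means 6.83 ± 0.48 and 4.88 ± 0.10, SD, n = 2 each; limma adjusted p = 4.9e-04). Its relative KIF21A rose by 0.45 ± 0.12. KIF3C, a kinesin-2 motor, had 7.45 and 7.41 in SKOV3 lovastatin, against 6.59 and 6.56 in SKOV3 DMSO. KIF16B, which moves early endosomes, had 7.12 and 6.79 in SKOV3 lovastatin, against 6.31 and 6.23 in SKOV3 DMSO. Both rose, KIF3C by 0.85 ± 0.14 and KIF16B by 0.68 ± 0.14, but a second KIF16B probe changed by 0.28 (limma adjusted p = 0.365). KIF12, detected in SKOV3 lovastatin alone, was at least 1.18-fold higher (limma adjusted p = 0.0221), a call lost in 6 of 18 alternative settings, with an adjusted p of up to 0.212. Those settings include leaving out SKOV3 lovastatin array 1, DMSO array 1 or DMSO array 2. KIF21A lost its call without SKOV3 DMSO array 2 (limma adjusted p = 0.0641). The conventional kinesin KIF5B changed by -0.35 ± 0.13 and did not pass the test (limma adjusted p = 0.0572), but passed as lower in 3 of 18 alternative settings, without SKOV3 lovastatin array 1 among them (-0.49).

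The promoters of KIF3C and KIF16B are shown as those of the largest rises with a window that is printed here. KIF13B, KIFC2 and KIF21B rose by more but had no window. They lie at chr2:25982448-25982747 (minus strand) and chr20:16573399-16573698 (minus strand), and hold no CHR, variant or CCAAT match. The capitals mark E2F-type matches of the second set of spellings only.
KIF3C: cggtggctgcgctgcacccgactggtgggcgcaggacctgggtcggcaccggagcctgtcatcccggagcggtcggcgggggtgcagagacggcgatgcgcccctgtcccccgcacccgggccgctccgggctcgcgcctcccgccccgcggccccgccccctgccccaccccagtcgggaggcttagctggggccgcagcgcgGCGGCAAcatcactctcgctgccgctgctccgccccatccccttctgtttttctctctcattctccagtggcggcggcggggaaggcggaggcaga
KIF16B: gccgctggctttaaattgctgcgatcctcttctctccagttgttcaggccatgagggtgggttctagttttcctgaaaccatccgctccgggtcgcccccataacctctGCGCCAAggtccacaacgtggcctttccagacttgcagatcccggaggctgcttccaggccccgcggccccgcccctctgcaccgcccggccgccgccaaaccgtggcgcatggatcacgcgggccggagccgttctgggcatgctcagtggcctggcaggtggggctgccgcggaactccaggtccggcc
The KIF3C match is at -46 and the KIF16B match at -141.

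In OVCAR5, 9 of 29 kinesins passed the test, beside 22.8% of all genes, with 4 higher and 5 lower. Without background correction the split was 4 higher and 8 lower. The mitotic kinesins had a median change of -0.29, and 3 of 13 fell, beside 9.29% of all genes. These were KIF18A (-0.59 ± 0.15, limma adjusted p = 0.0250), KIF20B (-0.48 ± 0.12, limma adjusted p = 0.0256) and KIF23 (-0.40 ± 0.12, limma adjusted p = 0.0482). The 3 calls rest on few arrays: 0 were left when OVCAR5 lovastatin array 1, lovastatin array 2 or DMSO array 2 was dropped, 1 when OVCAR5 DMSO array 1 was, and 6 were made without background correction.

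The mitotic kinesins' changes in OVCAR5 lay between -0.59 and 0.10. KIF20A had 10.63 and 10.63 in OVCAR5 lovastatin, against 10.92 and 10.87 in OVCAR5 DMSO. KIF11 had 8.93 and 9.25 in OVCAR5 lovastatin, against 9.31 and 9.46 in OVCAR5 DMSO. Lovastatin arrays were the lower for both, by -0.26 ± 0.11 and -0.29 ± 0.19, without passing the test. In OVCAR5, 9 of 13 mitotic kinesins had both lovastatin arrays below both DMSO arrays, beside 31.8% of all genes. KIFC1 had 9.99 and 9.98 in OVCAR5 lovastatin, against 10.20 and 10.34 in OVCAR5 DMSO. KIF4A had 8.38 and 8.51 in OVCAR5 lovastatin, against 8.90 and 8.73 in OVCAR5 DMSO. KIF20B had 9.60 and 9.50 in OVCAR5 lovastatin, against 10.00 and 10.06 in OVCAR5 DMSO. None of these 3 overlapped, and of them KIF20B passed the test. KIF2C had 9.45 and 9.08 in OVCAR5 lovastatin, against 9.68 and 9.64 in OVCAR5 DMSO. KIF18A had 8.25 and 8.05 in OVCAR5 lovastatin, against 8.56 and 8.92 in OVCAR5 DMSO. KIF23 had 9.18 and 9.27 in OVCAR5 lovastatin, against 9.62 and 9.62 in OVCAR5 DMSO. These too did not overlap. KIF15 had 7.45 and 7.78 in OVCAR5 lovastatin, against 8.02 and 8.06 in OVCAR5 DMSO, again lower on both arrays. KIF14 was the only mitotic kinesin with both OVCAR5 lovastatin arrays above both DMSO arrays, at 10.08 and 10.19 in lovastatin, against 10.05 and 10.02 in DMSO. KIF22 had 10.85 and 10.59 in OVCAR5 lovastatin, against 10.81 and 10.67 in OVCAR5 DMSO. KIF24 had 5.74 and 5.37 in OVCAR5 lovastatin, against 5.72 and 5.62 in OVCAR5 DMSO. For KIF22 and KIF24 the arrays overlapped.

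Outside mitosis, 4 of 16 kinesins rose in OVCAR5 (25%), beside 13.5% of all genes, and 2 fell (12.5%), beside 9.29%. In either direction 37.5% passed the test, beside 22.8% of all genes. KIF3C had 6.65 and 6.39 in OVCAR5 lovastatin, against 4.84 and 5.04 in OVCAR5 DMSO, where it was not above background. It was at least 1.97-fold higher (means 6.52 ± 0.19 and 4.94 ± 0.15, SD, n = 2 each; limma adjusted p = 2.1e-04). KIFC2 had 8.51 and 8.19 in OVCAR5 lovastatin, against 6.99 and 7.24 in OVCAR5 DMSO. KIF16B had 6.92 and 7.04 in OVCAR5 lovastatin, against 5.91 and 5.85 in OVCAR5 DMSO. Both rose without overlap, beside 35.2% of all genes, KIFC2 by 1.24 ± 0.21 and KIF16B by 1.10 ± 0.14, with a second KIF16B probe at 1.29. KIF1B, which carries mitochondria and vesicles, rose by 0.58 ± 0.17, while its other probes changed by 0.39 and 0.16. KIF7, which works at the ciliary tip in Hedgehog signalling, fell by 0.72 ± 0.12 (limma adjusted p = 0.0045). KIF26B had 4.49 and 4.72 in OVCAR5 lovastatin, against 5.56 and 5.64 in OVCAR5 DMSO, and was at least 1.09-fold lower. KIF26B, among the 2 that fell, passed the detection filter only through OVCAR5 DMSO, which favours the call. KIF13B had 6.15 and 6.30 in OVCAR5 lovastatin, against 5.78 and 5.58 in OVCAR5 DMSO, and did not pass the test (0.55 ± 0.17, limma adjusted p = 0.0537). KIF21B had 6.28 and 6.21 in OVCAR5 lovastatin, against 6.50 and 5.79 in OVCAR5 DMSO, which overlapped.

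The lovastatin changes of the lines were set against each other in 1 model, where 18 of 29 kinesins passed, beside 27.3% of all genes. Of the 13 mitotic kinesins, 12 had a lower change in SKOV3 than in OVCAR5, beside 14.5% of all genes, and KIF2A did not pass (-0.14 ± 0.25, limma adjusted p = 0.724). The largest difference was that of KIF20A, -3.27 ± 0.15. Of the other kinesins, 5 had a higher change in SKOV3, beside 12.8% of all genes, and KIF3C a lower one; these 6 calls became 2 to 7 when an array was left out. KIF26B was above background in OVCAR5 DMSO alone, and KIF21B, KIF24 and KIF3C were not above background in 1 group each. The differences of these genes are fitted values and not measured sizes. KIF24 was also near background in OVCAR5, where it was detected on 1 of 2 lovastatin arrays. A fall as large as its fall in SKOV3 could not have been seen there. KIF16B, KIF3C and KIFC2 rose in both lines, and KIF18A, KIF20B and KIF23 fell in both. The share of all genes called alike in both lines was not counted. In OVCAR5 the calls of KIF18A, KIF20B and KIF23 were lost in 4, 4 and 9 of 18 settings. The second KIF23 probe gave a difference of -0.33 (limma adjusted p = 0.343).

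**Figure D4:**
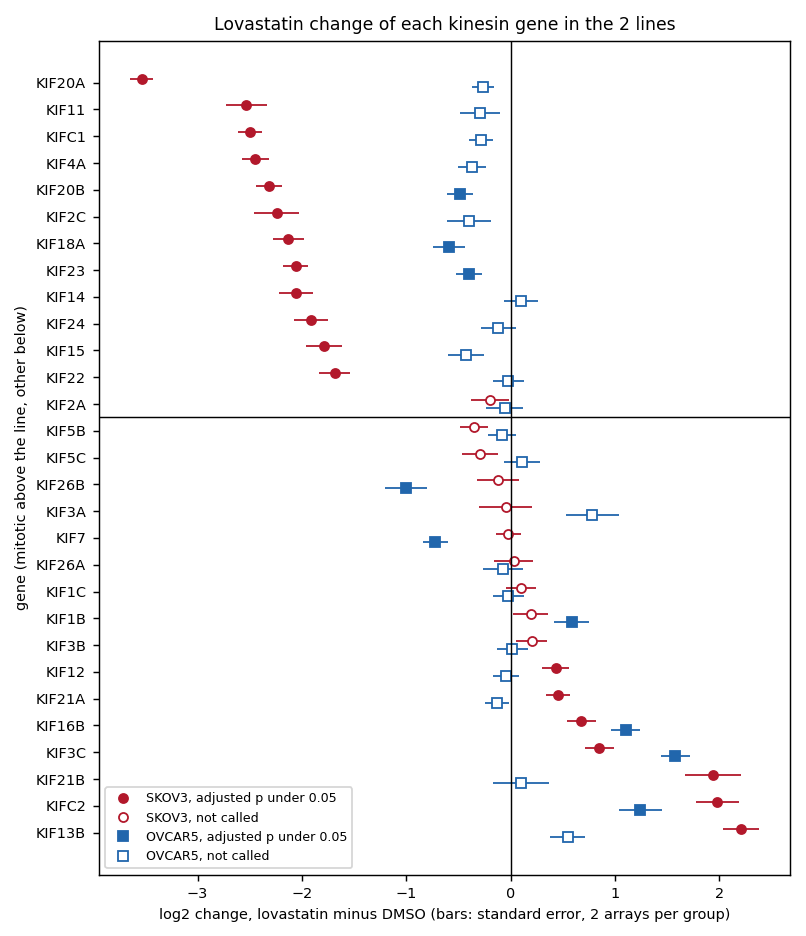
Log2 change with lovastatin against DMSO for each tested kinesin, SKOV3 beside OVCAR5, with bars of 1 SE, filled points for genes that passed the test and mitotic kinesins above the line. The mitotic kinesins other than KIF2A lie between -1.68 and -3.54 in SKOV3 and between -0.59 and 0.10 in OVCAR5.

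Between the DMSO arrays of the lines, kinesin levels differed about as often as those of all genes. In SKOV3 against OVCAR5, 18 of 29 kinesins differed (62.1%), beside 61.9% of all genes, with 9 higher in SKOV3, beside 32.3%, and 9 lower, beside 29.6%. KIF12, called higher, was not above background on any DMSO array. KIF3C and KIF5C were not above background in OVCAR5 DMSO, and were at least 2.05-fold and 1.98-fold higher in SKOV3. KIF21B, KIF26A and KIF26B were not above background in SKOV3 DMSO, and were at least 1.64-fold, 1.10-fold and 1.12-fold lower there. KIF26A was itself detected on only 1 of 2 OVCAR5 DMSO arrays. KIF26A and KIF26B passed the detection filter only through OVCAR5 arrays, and KIF5C and KIF12 only through SKOV3 arrays. Each was called higher in the line that let it pass, which favours the call. KIF14 was lower in SKOV3 (-1.75 ± 0.16, limma adjusted p = 3.0e-05), while KIF24 was higher in SKOV3 (1.37 ± 0.17) and KIF13B likewise (1.49 ± 0.17). Of the mitotic kinesins 7 of 13 differed, and 11 did without background correction.

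Genes that work with the mitotic kinesins also fell in SKOV3. Of 23 tested spindle and cytokinesis partners, all 23 fell in SKOV3, with a median change of -2.29, beside 23.9% of all genes, and 7 fell in OVCAR5 (30.4%), with a median of -0.33, beside 9.29% of all genes. The OVCAR5 count was 11 without background correction and 1 to 8 when an array was left out. The list counts CENPE as a partner, though it is itself a kinesin motor that the symbol rule left out. SPC25, a kinetochore subunit, changed by -3.10 ± 0.12 in SKOV3 (its other probe by -1.07) and CENPF by -2.70 ± 0.11. CDCA8, of the passenger complex that KIF20A carries, changed by -0.94 ± 0.16 in OVCAR5. The list named DREAM and MMB regulators also holds E2F and RB genes outside those complexes, E2F2 and E2F7 among them. Of its 17 tested genes, 11 fell in SKOV3 (64.7%), beside 23.9% of all genes. Another 4 rose (23.5%), which is near the 26.6% of all genes. E2F2 was at least 12.3-fold lower in SKOV3 (limma adjusted p = 2.0e-06) and the repressor E2F7 rose by 2.16 ± 0.11, with FOXM1 at -1.83 ± 0.12. In OVCAR5, E2F7 rose by 1.21 ± 0.11 and E2F2 changed by -0.94 ± 0.18.

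Of 15 tested light chains and adaptors, 8 rose in SKOV3 (53.3%), beside 26.6% of all genes, and none fell. In OVCAR5 4 rose (26.7%), beside 13.5% of all genes, a count of 2 to 6 when an array was left out. In either direction, 53.3% passed the test in SKOV3, beside 50.5% of all genes, and 26.7% in OVCAR5, beside 22.8%. These shares are near those of all genes. Not every probe of a gene agreed: in SKOV3 the other TRAK1 probes changed by -0.42 and 0.83 and the other KLC1 probe by 0.02. The other SPAG9 probes rose by 0.88 and 1.15. MAPK8IP3, which links kinesin-1 to vesicles, rose by 1.91 ± 0.15 in SKOV3 (limma adjusted p = 2.4e-05). KIFAP3, the kinesin-2 adaptor that binds KIF3A and KIF3B, rose by 1.10 ± 0.11 in OVCAR5 and changed by -0.10 ± 0.11 in SKOV3. Of 21 tested dynein and dynactin genes, the opposing motor, 8 rose (38.1%) and 1 fell in SKOV3, beside 26.6% and 23.9% of all genes. In OVCAR5 5 rose (23.8%), beside 13.5% of all genes, a count of 1 to 6 when an array was left out. In either direction, 42.9% of these genes passed the test in SKOV3, beside 50.5% of all genes, and 23.8% in OVCAR5, beside 22.8%, which are shares near those of all genes. NDEL1, a dynein regulator, rose by 1.02 ± 0.15 in SKOV3.

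Tubulins form the tracks on which kinesins walk. Of 13 tested tubulins, 8 fell in SKOV3 (61.5%), beside 23.9% of all genes, and 1 rose (median -0.37). TUBB2A, among the 8, lost its call in 9 of 18 alternative settings. In OVCAR5 4 rose (30.8%), beside 13.5% of all genes, and none fell. TUBB4B changed by -1.29 ± 0.12 in SKOV3, and TUBB3 rose by 1.58 ± 0.15 in OVCAR5. The difference between the lines passed for 9 of 13 tubulins (69.2%), each with the lower change in SKOV3, beside 14.5% of all genes. Of 16 tested microtubule-associated proteins, 7 rose in SKOV3 (43.8%), beside 26.6% of all genes. Another 3 fell (18.8%), which is near the 23.9% of all genes. In OVCAR5 3 rose (18.8%), beside 13.5% of all genes, and 1 fell (6.25%), beside 9.29%. The MAP2 probes disagreed in SKOV3: the brightest changed by -0.21 and was not called, while the others rose by 1.39 and 1.42. STMN1, which sequesters tubulin, changed by -2.24 ± 0.14 in SKOV3 (its other probe by -0.75), and MAPT, or tau, rose by 1.45 ± 0.12 in SKOV3 and 1.09 ± 0.12 in OVCAR5.

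**Figure D5:**
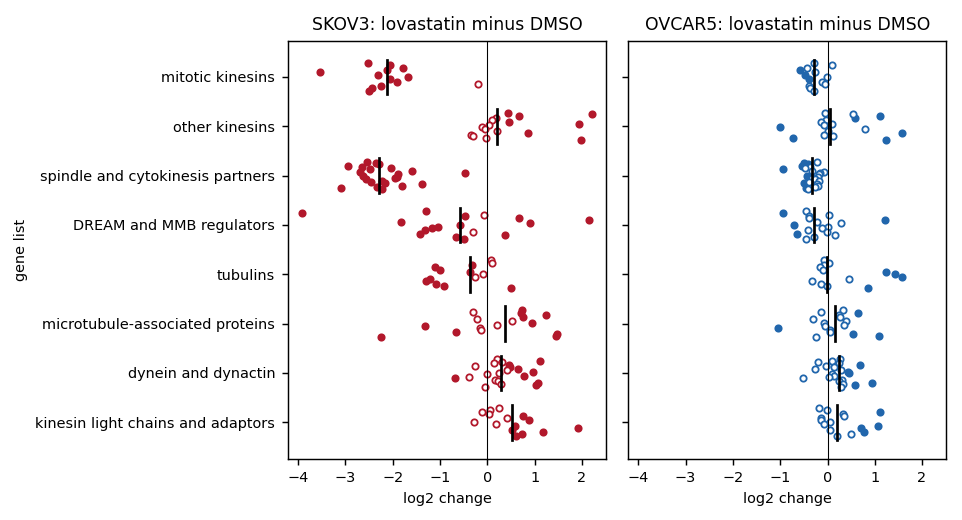
Log2 change with lovastatin of every tested member of each gene list (points, filled where the test was passed), SKOV3 left of OVCAR5, with the median as a bar. The spindle partners have medians of -2.29 in SKOV3 and -0.33 in OVCAR5, and the light chains and adaptors 0.52 in SKOV3 and 0.20 in OVCAR5.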

How the data were processed

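RNA of 8 arrays was analysed. Per the file headers, the first deposited table gives raw bead intensity and, beside it, a detection p-value per probe. The other deposited table has log2 values from limma, per the submitters' processing notes, and 99.997% of its SKOV3 values lay within 0.01 of a normalization of that line alone. Here the intensities of all 8 arrays went through neqc (limma 3.58.1, R 4.3.3, offset 16). A probe was kept if it had 1 symbol and was detected (p under 0.01) on 2 or more arrays, which left 14851 probes, and the brightest stood for each of 11218 genes. Groups were compared by limma's moderated test on 4 group means; calls used a threshold of 0.05 on p-values adjusted by Benjamini and Hochberg's method over all genes, and the code was tested on simulated data. A gene not above background in a group is given as a bound, computed from the dimmest detected signal. Kinesins that passed with a change of at least 1 log2 are given array by array. Up to 3 genes per partner list and line, by size, could be named, and some of these were left out. TRAK1, KLC1, MAP2 and CENPE are named for other reasons, given with them.

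The members, the partner lists and the tests were chosen with earlier results of these data known. Promoter motifs were not part of the written plan. The E2F-type motif was searched in a longer spelling and, after that result was seen, in 4 shorter ones; the change was made for how the letters are printed, it raised the count of mitotic kinesins with a match, and both searches are given. Promoters are RefSeq sequences of GRCh38.p14, found for 33 of 41 kinesin genes. Having 2 arrays per group limits the precision. Plots used Python 3.11.15 with matplotlib 3.10.9.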

Additional observations from a re-analysis of the deposited data

Results flagged for a closer look

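The lovastatin change differed between the lines for 18 kinesins, by limma's test of the SKOV3 change minus the OVCAR5 change, in log2 with SE. The change was lower in SKOV3 for KIF20A (-3.27 ± 0.15), KIF11 (-2.24 ± 0.27), KIFC1 (-2.21 ± 0.16), KIF14 (-2.15 ± 0.23), KIF4A (-2.08 ± 0.19), KIF2C (-1.84 ± 0.30), KIF20B (-1.83 ± 0.18), KIF24 (-1.79 ± 0.24), KIF22 (-1.66 ± 0.21), KIF23 (-1.66 ± 0.17), KIF18A (-1.54 ± 0.21), KIF15 (-1.36 ± 0.24) and KIF3C (-0.73 ± 0.19). The change was higher in SKOV3 for KIF21A (0.58 ± 0.16), KIF7 (0.70 ± 0.17), KIF26B (0.88 ± 0.28), KIF13B (1.66 ± 0.24) and KIF21B (1.84 ± 0.38). The limma adjusted p was 2.8e-05 for KIF20A and 0.0493 for KIF26B, the weakest of the 18. KIF24 was not above background in SKOV3 lovastatin, KIF21B in SKOV3 DMSO and KIF3C in OVCAR5 DMSO. KIF24 was also near background in OVCAR5, so a fall like that in SKOV3 could not have been seen there. KIF26B was above background in OVCAR5 DMSO alone, so the detection filter kept it only through that group. Its difference lost the call in 13 of 17 alternative settings. For these 4 genes the value is that of the fit and not a measured size. Groups of 2 arrays were too small for a search for outlying arrays.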

How the results depend on the processing

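Leaving out each array in turn gave 17 to 19 called kinesins in SKOV3, 4 to 10 in OVCAR5, 14 to 19 for the difference of the lines and 14 to 20 between the lines in DMSO. In OVCAR5 the count was 4 without lovastatin array 1 and 5 without lovastatin array 2, against 9 with all arrays, and fewer arrays were then in the test. KIF18A, KIF20B, KIF23, KIF1B and KIF26B each lost their OVCAR5 call without at least 1 OVCAR5 array. In SKOV3, KIF12 lost its call in 6 of 18 settings and KIF21A in 1, and KIF5B gained a lower call in 3. The difference call was lost in 5 of 17 settings for KIF3C, 7 for KIF7, 7 for KIF21A and 13 for KIF26B. The 12 mitotic calls in SKOV3 and the 12 of the difference held in every setting run, and no kinesin reversed. Labels of the arrays share only a replicate number: deviations of same-numbered arrays correlated at 0.23 in SKOV3 and -0.03 in OVCAR5. With the replicate number as a block, 19, 8, 17 and 20 kinesins were called in SKOV3, in OVCAR5, for the difference and between the lines. Normalizing each line alone moved the median of all genes between the lines in DMSO to 0.21, against 0.01. The spelling of the E2F-type motif, changed after the first search was seen, moved the mitotic kinesins with a match to 3 of 13, against 1 of 13.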
